A study of Mus musculus with 14 samples.

Results

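Mouse embryonic stem cells in which doxycycline switches on ER71 (gene Etv2), GATA2 and Scl (gene Tal1) were differentiated as embryoid bodies, and the RNA of cells induced for 24 h was compared with that of cells induced for 12 h. The comparison used 6 of the 14 arrays of the series, 3 induced 24 h arrays against 3 induced 12 h arrays, chosen by their sample labels, and covered all 19938 genes that a single-symbol probe set measured. The induced 24 h cells were taken on day 3 and the induced 12 h cells on day 2.5 of differentiation, both with doxycycline at 1 µg/ml from day 2. Control cells of the same lines without doxycycline were taken on day 3 and on day 2.5, on 3 arrays each. They gave the change over the same span without induction of the factors. Their label calls them wild-type, although they carry the same inducible lines. The design text speaks of independent experiments and names ER71/Etv2 and GATA2, and Scl is included on the word of the titles and genotype labels. In each group replicates 1 and 2 came from the line iEGS and replicate 3 from the line iB1, so replicate 3 is also the other line. The stem cells grew on a PMEF feeder layer until differentiation began. Cells that lacked the factors but received doxycycline were not analysed here.

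ETV2, GATA2 and SCL are transcription factors that together open the blood and endothelial programme in mesoderm. ETV2 acts at the top of this programme and switches on other ETS factors, receptors for vascular growth factors and the adhesion molecules of the vessel wall. In embryoid bodies, cells of an epiblast-like state first pass through a primitive-streak stage, which depends on Nodal, Wnt, FGF and BMP signals, before mesoderm of the vascular, cardiac and paraxial kinds appears. All values below are log2 array signals made by the authors, so a difference of 1 is a 2-fold difference, and low signals are compressed towards a floor, which understates the change of dim genes. Signals are compared between arrays for the same gene and not between genes. With 3 arrays a group, the number of arrays limits the precision. In these mixed cell aggregates, fewer cells of a type and less RNA per cell cannot be told apart.

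The median signal of the 12 arrays lay between 5.51 and 5.60. Induced 24 h replicate 3 had the narrowest spread over genes, with an SD of 1.91 against 2.04 to 2.22 on the other arrays, and correlated least with the remaining arrays, at a mean of 0.968 against 0.976 to 0.986. The 3 induced 24 h arrays differed more from each other (root mean square difference 0.371 to 0.615) than the induced 12 h arrays did (0.236 to 0.31). Calls were therefore also made without each single array. Pou5f1, which marks the stem cells of origin, read between 10.01 and 11.29 on the 12 arrays.

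The induced factors themselves did not pass the test between the times. Etv2 read 9.73, 9.83 and 9.73 in induced 24 h cells, against 10.47, 9.91 and 10.00 in induced 12 h cells. Gata2 read 10.01, 10.03 and 9.94 in induced 24 h cells, against 10.43, 9.89 and 9.93 in induced 12 h cells. Tal1 read 7.38, 7.72 and 7.49 in induced 24 h cells, against 7.94, 6.94 and 7.15 in induced 12 h cells. The Gata2 and Tal1 arrays of both times overlapped, whereas all 3 Etv2 arrays at 24 h lay below those at 12 h, with a log2 change of -0.37 ± 0.192 (limma, adjusted p = 0.48). The changes of Gata2 (-0.09 ± 0.179, adjusted p = 0.888) and Tal1 (0.19 ± 0.239, adjusted p = 0.814) were within the spread between arrays. Every induced array was above every control array for all 3 genes, with control Gata2 between 5.49 and 6.29, control Etv2 between 6.77 and 8.05 and control Tal1 between 4.61 and 5.45. The probe sets do not separate the transgene from the cell's own transcript.

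Between 12 h and 24 h of induction, called genes on the endothelial lists rose, and called genes on the epiblast, Nodal and FGF feedback lists fell. Of the 19938 genes, 360 were called at an adjusted p under 0.05 (limma, Benjamini-Hochberg over all genes, 1.81%), of which 111 were higher (0.557%) and 249 lower (1.25%) at 24 h. At least 2-fold changes were seen for 59 risers and 76 fallers, and at least 4-fold changes for 4 risers and 1 faller. The arrays of the 2 times did not overlap for any of the 360 genes, while 15.4% of all genes tested were free of overlap. The calls came from these same arrays, so the separation is no separate support for them. The number of calls was sensitive to single arrays. It was 727 without induced 24 h replicate 1, 179 without induced 12 h replicate 1, 161 without induced 12 h replicate 2 and 165 without induced 12 h replicate 3. Without induced 24 h replicate 3 there were 269 calls, 122 higher and 147 lower. In every one of the 6 fits that left out 1 induced array, 45 of the risers and 81 of the fallers were called. The 6 induced arrays alone gave 100 calls (43 risers, 57 fallers), 99 of which lay among the 360. Risers made up 30.8% of the calls, and 44.3% after a further quantile normalization, which gave 197 risers and 248 fallers. Without all 4 arrays of replicate 3, which are those of the line iB1 among the 12, risers outnumbered fallers, with 32 risers and 21 fallers (60.4% risers), and all 53 lay among the 360.

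Most genes called in control cells over the same span rose. There, 151 genes were called (0.757%), 112 higher (0.562%) and 39 lower (0.196%) on day 3 than on day 2.5, and the arrays of the days did not overlap for 13.6% of all genes. The induced and control comparisons share no array. Of the 111 induced risers, 8 also rose in control cells, which is 7.21% of the induced and 7.14% of the control risers. Of the 249 induced fallers, 23 also fell in control cells, which is 9.24% of the induced fallers and 59% of the control fallers. The 39 control fallers had a median log2 change of -0.90 in induced cells and -0.88 in control cells, and none passed the test of a difference between the changes. The 112 control risers had a median of 0.08 in induced cells, against 1.22 in control cells, and 42 of them passed that test, all with the lower change in induced cells. Both sets were chosen by their control change, which the difference subtracts. That choice favours a lower difference for control risers and a higher one for control fallers, so the shared direction is no separate result. The difference between the 2 changes was called for 85 genes in all (0.426%), 20 with the higher (0.1%) and 65 with the lower change in induced cells (0.326%). The higher ones made up 23.5% of the differences, and 36.9% after a further quantile normalization (48 of 130). All 20 were induced risers that were not called in control cells. Among the 65, 39 rose in control cells and were not called in induced cells, 20 fell in induced cells and were not called in control cells, and 3, namely Cer1, Cdh2 and Upp1, fell in induced cells and rose in control cells. The number of differences was 48 without induced 12 h replicate 2, 48 without induced 12 h replicate 3 and 48 without control day 3 replicate 1. The control calls numbered 238 without induced 24 h replicate 1, 93 without control day 3 replicate 2, 67 without control day 3 replicate 3, 75 without control day 2.5 replicate 2 and 87 without control day 2.5 replicate 3.

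**Figure D1:**
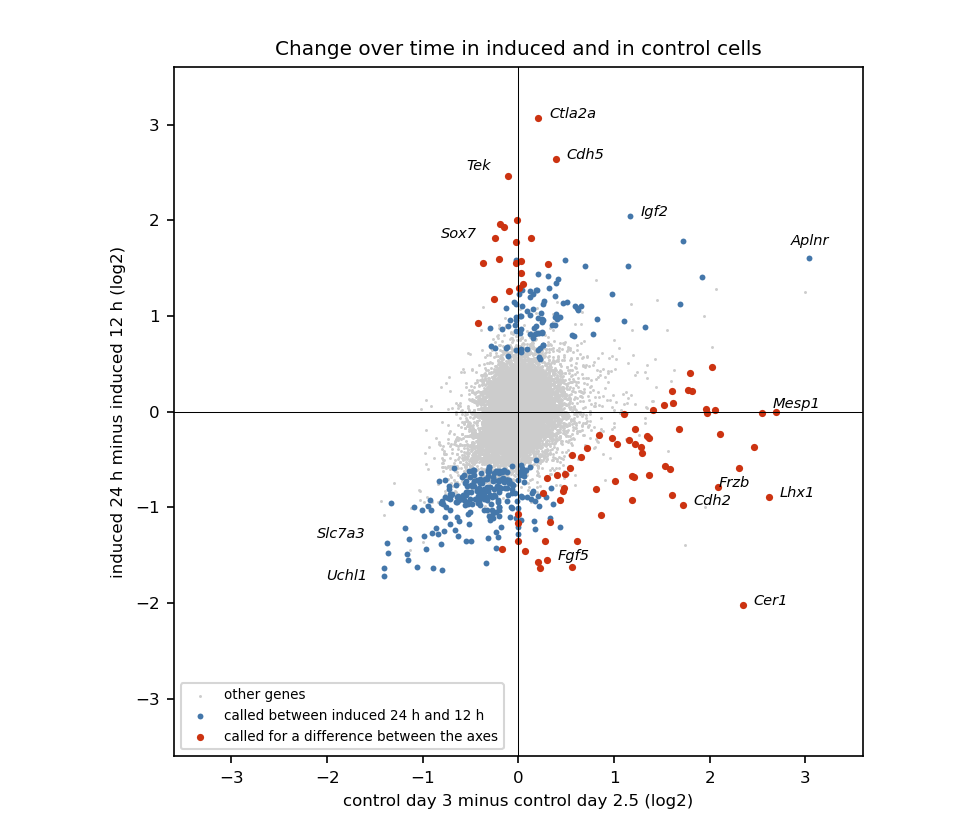
Log2 change of each of the 19938 genes in induced cells (24 h minus 12 h, vertical axis) against control cells (day 3 minus day 2.5, horizontal axis), each the difference of the means of 3 arrays. Blue points are the genes called between induced 24 h and 12 h and red points, drawn over them, the 85 genes called for a difference between the axes. Red points lie high near the vertical axis, led by Ctla2a, Cdh5 and Tek, and elsewhere to the lower right, with Cer1 lowest.

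Of 17 measured endothelial transcription factors, 6 rose and none fell in induced cells, beside 0.557% of all genes called higher, with a median log2 change of 0.20 for the list against -0.01 for all genes. The count was also 6 without induced 24 h replicate 3 and with the 6 induced arrays alone. In control cells 2 of the 17 were called higher, with a median of 0.03. Sox7, a SoxF factor of early endothelium, stood at 8.36, 9.09 and 8.70 in induced 24 h cells, against 7.30, 6.60 and 6.83 in induced 12 h cells. Every array at 24 h was above every array at 12 h, and the control arrays were lower than both, between 4.72 and 5.29. The rise was 1.81 ± 0.207 (standard error, limma, adjusted p = 0.000546), which is 3.49-fold, against a change of -0.24 in control cells, and the difference between the changes passed the test (adjusted p = 0.00554).

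The other called factors included 4 of the ETS family. Ets2 read 9.62, 9.42 and 9.21 in induced 24 h cells, against 7.95, 7.76 and 7.82 in induced 12 h cells. These values were tight within each time, and the rise of 1.57 ± 0.161 (limma, adjusted p = 0.000291) had no counterpart in control cells (0.03; difference, adjusted p = 0.0056). Fli1, which is needed for vessel and platelet development, read 9.99, 9.86 and 9.49 in induced 24 h cells, against 8.55, 8.31 and 8.14 in induced 12 h cells. It had already been above the control arrays at 12 h, and it rose by a further 1.45 ± 0.17 (adjusted p = 0.000594). Erg, an ETS factor that maintains endothelial identity, read 6.60, 6.51 and 6.17 in induced 24 h cells, against 5.39, 5.37 and 5.14 in induced 12 h cells. Its 3 arrays at 24 h exceeded all the others, with a rise of 1.13 ± 0.191 (adjusted p = 0.00672), while Ets1 rose by 1.26 ± 0.168 (adjusted p = 0.00137). The changes of Erg and Ets1 were not shown to differ from those in control cells (difference, adjusted p = 0.77 and 0.0587), and the difference for Fli1 (adjusted p = 0.0163) missed the threshold without 5 of the 12 single arrays, at an adjusted p of up to 0.0637. Sox17, a SoxF factor of arterial endothelium and of definitive endoderm, rose in induced cells (1.12 ± 0.195, adjusted p = 0.00829) and also in control cells (1.69, adjusted p = 0.00055), with no called difference (adjusted p = 0.893). Sox18 was not called, with 8.21, 8.87 and 8.12 in induced 24 h cells, against 8.89, 8.67 and 8.38 in induced 12 h cells. It was the SoxF gene whose arrays overlapped between the times.

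Of 25 measured receptors and ligands of the endothelium, 8 were called higher and none lower at 24 h, beside 0.557% of all genes called higher. The median change was 0.56, while 9 were higher without induced 24 h replicate 3 and 5 with the 6 induced arrays alone. In control cells 3 were called higher, with a median of 0.16. Tek, the receptor for angiopoietins, read 9.32, 8.20 and 8.00 in induced 24 h cells, against 6.42, 5.92 and 5.78 in induced 12 h cells. The lowest array at 24 h was well above the highest at 12 h, and replicate 1 was the highest at both times. The rise was 2.46 ± 0.296 or 5.51-fold (limma, adjusted p = 0.000626), against a change of -0.11 in control cells, where the arrays lay between 4.20 and 4.95, and the difference passed the test (adjusted p = 0.0118). Ptprb, which encodes VE-PTP, a phosphatase that restrains Tek signalling, read 7.38, 6.29 and 5.89 in induced 24 h cells, against 4.58, 4.59 and 4.59 in induced 12 h cells. The 12 h arrays were close to the control arrays, which lay between 3.91 and 4.54. Its rise was 1.93 ± 0.283 (adjusted p = 0.00264), and its difference from control cells (adjusted p = 0.0344) missed the threshold without 10 of the 12 single arrays, at up to 0.114.

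The other called receptors changed by less than Tek and Ptprb. Plxnd1, a semaphorin receptor of vessels, rose by 1.44 ± 0.26 (limma, adjusted p = 0.0106), Calcrl, the receptor chain for adrenomedullin, by 1.34 ± 0.17 (adjusted p = 0.000797), and its partner Ramp2 by 1.03 ± 0.146 (adjusted p = 0.00206). Tie1, the orphan relative of Tek, read 6.25, 5.62 and 5.23 in induced 24 h cells, against 4.66, 4.46 and 4.61 in induced 12 h cells, a rise of 1.12 ± 0.208 (adjusted p = 0.0121). The calls of Plxnd1 and Tie1 were lost without induced 12 h replicate 2 (adjusted p = 0.0662 and 0.0688) or replicate 3 (0.057 and 0.0517). S1pr1, a receptor for sphingosine 1-phosphate (adjusted p = 0.0487), was lost without 9 of the 12 single arrays. Aplnr, the apelin receptor of mesoderm and vessels, read 9.19, 8.26 and 8.13 in induced 24 h cells, against 7.03, 6.72 and 6.98 in induced 12 h cells. Control cells read 9.93, 9.74 and 10.35 on control day 3, against 7.23, 6.25 and 7.41 on control day 2.5. The control arrays of day 3 were above all induced arrays. The changes were 1.61 ± 0.305 in induced cells (adjusted p = 0.0138, and 0.0754 and 0.0531 without induced 12 h replicate 2 or 3) and 3.04 in control cells (adjusted p = 0.00023), and their difference was not called (adjusted p = 0.328). The receptors for VEGF, the main growth factor of vessels, did not pass the test. Kdr read 8.33, 7.47 and 7.32 in induced 24 h cells, against 7.51, 6.79 and 6.77 in induced 12 h cells. Its arrays overlapped and its change was 0.68 ± 0.264 (adjusted p = 0.284), against a change of 2.02 in control cells (adjusted p = 0.0016), and Flt1 changed by 0.92 ± 0.237 (adjusted p = 0.0716).

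Junction and surface genes of the endothelium were called higher for 6 of 28 measured and lower for none, beside 0.557% of all genes called higher. The median change was 0.31. The count was 7 without induced 24 h replicate 3 and 4 with the 6 induced arrays alone. In control cells 1 of the 28 was called higher, with a median of -0.02. Cdh5, the VE-cadherin of endothelial junctions, read 9.50, 9.02 and 8.43 in induced 24 h cells, against 6.56, 6.18 and 6.28 in induced 12 h cells. The groups lay far apart, and the 12 h arrays were themselves above the control arrays, which ran between 4.96 and 5.76. Cdh5 rose by 2.64 ± 0.23 or 6.25-fold (limma, adjusted p = 0.000155), against a change of 0.39 in control cells (difference, adjusted p = 0.00554). Gja4, a gap junction protein of arterial endothelium, read 7.14, 7.22 and 7.00 in induced 24 h cells, against 5.24, 5.17 and 4.96 in induced 12 h cells. At 12 h it was within reach of the control arrays, which ran from 4.07 to 5.06, and it then rose by 2.00 ± 0.233 (adjusted p = 0.000594). Its difference from control cells (adjusted p = 0.0133) had an adjusted p of 0.0536 without induced 12 h replicate 3. Egfl7, a matrix protein secreted by endothelium, read 9.07, 9.07 and 8.79 in induced 24 h cells, against 7.91, 7.73 and 7.74 in induced 12 h cells. All 3 arrays at 24 h exceeded all others, with a rise of 1.18 ± 0.144 (adjusted p = 0.000626) against a change of -0.25 in control cells (difference, adjusted p = 0.00554). Ecscr, an endothelial surface protein, rose by 1.42 ± 0.162 (adjusted p = 0.000546). Rasip1, which acts in forming the vessel lumen, rose by 0.86 (adjusted p = 0.00874, and 0.0618 and 0.0559 without induced 12 h replicate 2 or 3), and the call of Esam, an endothelial adhesion molecule (adjusted p = 0.0416), was lost without 8 of the 12 arrays. Pecam1, a further junction protein, read 6.86, 6.09 and 5.75 in induced 24 h cells, against 6.45, 5.64 and 5.51 in induced 12 h cells. Its groups overlapped and its change of 0.37 ± 0.346 was not called (adjusted p = 0.73), nor was that of Cd34, at 0.13 ± 0.191.

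**Figure D2:**
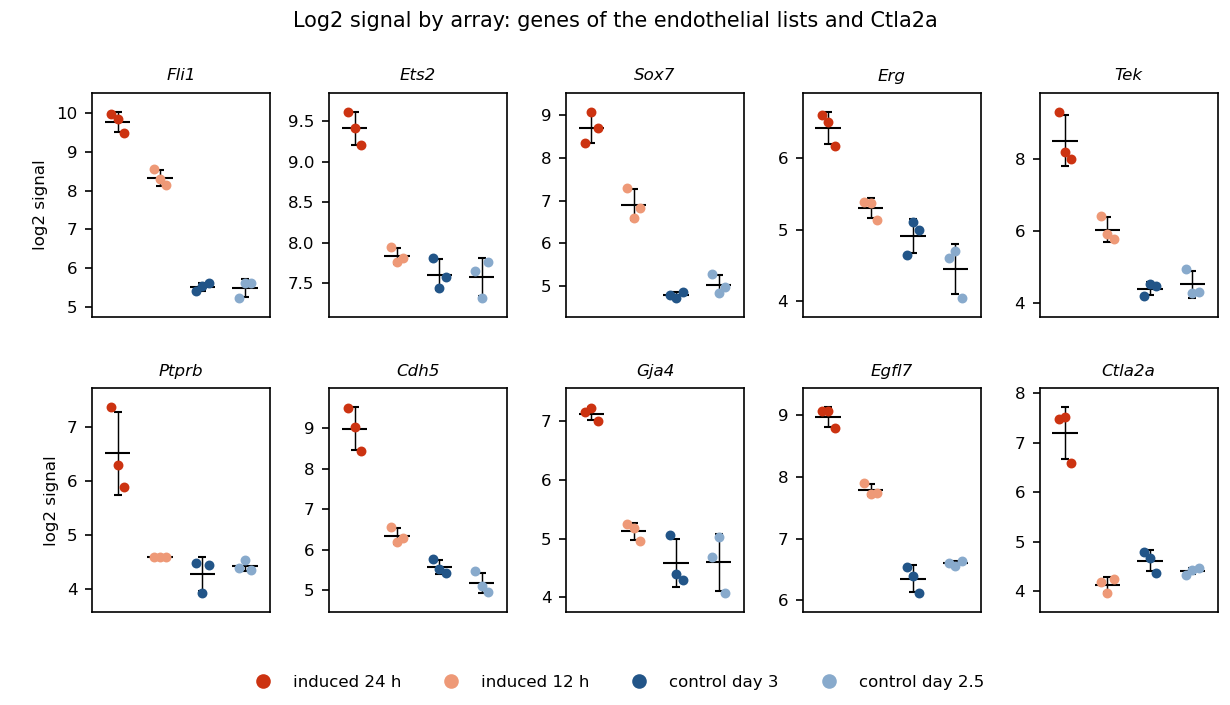
Log2 signal on each array for 10 genes, with induced 24 h, induced 12 h, control day 3 and control day 2.5 from left to right in each panel; points are arrays in the order of replicates 1 to 3, horizontal lines are means and bars are SD over 3 arrays, and each panel has its own vertical scale. In all 10 panels the induced 24 h points lie above all other points. Ptprb and Ctla2a are near their control levels at 12 h, whereas Fli1, Sox7, Tek and Egfl7 are already above theirs.

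Promoter sequence is shown for Tek and Egfl7, a receptor and a secreted protein that rose. Each window is the 300 bases from 250 before to 50 after the annotated start (RefSeq, GRCm38.p6). The windows are examples and not typical of the risers, of which Calcrl, Plxnd1, Igf2 and Scube2, for instance, held no match to the motifs below. Capitals mark matches to 3 motifs, each searched on both strands. The first was GGAAGT, which resembles the core bound by ETS factors. The second was AGATAA, which resembles the core bound by GATA factors. The third was CAGNTG, an E-box of the kind bound by SCL with its partners. The Tek window lies at chr4:94739039-94739338 on the plus strand and holds 1 AGATAA match. The first of 3 listed Egfl7 windows lies at chr2:26580833-26581132 on the plus strand and holds 2 GGAAGT matches, 1 on each strand, and 1 CAGNTG match, none of which overlap.
Tek: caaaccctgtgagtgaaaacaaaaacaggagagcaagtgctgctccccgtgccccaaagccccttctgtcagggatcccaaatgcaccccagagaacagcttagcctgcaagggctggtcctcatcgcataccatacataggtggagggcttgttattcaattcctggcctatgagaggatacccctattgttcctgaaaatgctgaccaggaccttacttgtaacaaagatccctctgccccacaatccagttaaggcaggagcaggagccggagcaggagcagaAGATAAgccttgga
Egfl7: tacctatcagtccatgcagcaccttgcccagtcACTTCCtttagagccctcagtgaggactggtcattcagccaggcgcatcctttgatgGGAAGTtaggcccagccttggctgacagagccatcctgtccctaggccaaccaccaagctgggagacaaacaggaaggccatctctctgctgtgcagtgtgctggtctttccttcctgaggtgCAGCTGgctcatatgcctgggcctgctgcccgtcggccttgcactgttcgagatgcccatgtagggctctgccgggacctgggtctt
Of the 111 risers, 73 had a listed promoter, and GGAAGT was found in 19.2% of these, against 17.5% of 194 fallers with a promoter and 25.1% of the 15614 tested genes with one. AGATAA was found in 13.7% of risers, 5.67% of fallers and 9.55% of tested genes, and CAGNTG in 47.9%, 56.7% and 47.8%. Over all 27025 listed promoters the shares were 24.1%, 11.4% and 51.1% in the same order of motifs. A match is a description of these windows and not a binding site.

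Ctla2a, a gene for a protease inhibitor related to the cathepsin L propeptide, showed the largest rise of all genes. Its arrays stood at 7.49, 7.52 and 6.60 in induced 24 h cells, against 4.18, 3.95 and 4.25 in induced 12 h cells. At 12 h it was no higher than in control cells, where all 6 arrays lay between 4.33 and 4.79, and at 24 h it was above them all. The rise was 3.07 ± 0.213 or 8.42-fold (limma, adjusted p = 1.63e-05), against a change of 0.21 in control cells (difference, adjusted p = 0.000862). Ctla2b, its near-identical neighbour in sequence, read 6.59, 6.84 and 6.19 in induced 24 h cells, against 4.64, 4.59 and 4.53 in induced 12 h cells. It rose by 1.96 ± 0.263 (adjusted p = 0.00137), but probes of such copies can bind both transcripts, so which of them rose is uncertain. Its difference from control cells (adjusted p = 0.0167) was lost without 4 of the 12 single arrays.

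Several other large risers were not on the endothelial lists. Igf2, an imprinted growth factor, read 10.51, 11.26 and 11.04 in induced 24 h cells, against 9.11, 8.71 and 8.86 in induced 12 h cells. Control cells also rose at lower levels, with 8.18, 8.22 and 8.56 on control day 3, against 7.28, 6.88 and 7.29 on control day 2.5. The changes were 2.04 ± 0.2 in induced cells (limma, adjusted p = 0.000274) and 1.17 in control cells (adjusted p = 0.011, lost without 2 of the 12 single arrays), and the difference between them was not called (adjusted p = 0.42). Scube2, a secreted protein that enhances hedgehog release and acts in VEGF signalling, read 8.75, 8.03 and 7.91 in induced 24 h cells, against 6.53, 6.41 and 6.34 in induced 12 h cells. Ubash3b, a phosphatase that dampens tyrosine kinase signals, read 7.64, 6.67 and 6.42 in induced 24 h cells, against 5.21, 5.13 and 5.08 in induced 12 h cells. Gadd45g, a stress and growth arrest gene, read 7.84, 7.29 and 6.67 in induced 24 h cells, against 5.81, 5.72 and 5.48 in induced 12 h cells. For these 3 genes every array at 24 h was above every other array, and the highest was replicate 1 each time. The rises were 1.81, 1.77 and 1.59 (adjusted p = 0.000797, 0.00164 and 0.00322). Their differences from control cells (adjusted p = 0.0354, 0.0332 and 0.0342) were lost without 9, 10 and 10 of the 12 single arrays.

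The remaining genes among the 15 largest risers depended on single arrays. Klhl6, a ubiquitin ligase adaptor known from lymphocytes, read 8.20, 6.89 and 6.41 in induced 24 h cells, against 5.63, 5.66 and 4.87 in induced 12 h cells. It rose by 1.78 ± 0.399 (limma, adjusted p = 0.0368), a call lost without 6 of the 12 single arrays, and control cells changed by 1.72. Cdc42ep1, an effector of the small GTPase Cdc42, rose by 1.58 ± 0.287 (adjusted p = 0.0107, and 0.0637 without induced 12 h replicate 2). Tnfaip2 rose by 1.58 ± 0.291 (adjusted p = 0.0118, and 0.0727 without induced 12 h replicate 3).

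Blood genes were called in both directions, beside 0.557% of all genes called higher and 1.25% called lower. Among 20 blood progenitor transcription factors, 3 rose and 1 fell, with a median change of 0.36. Among 20 blood surface and signalling genes, 2 rose and 1 fell, with a median of 0.14. The first list had 4 higher and 1 lower without induced 24 h replicate 3, and 1 higher and 1 lower with the 6 induced arrays alone. The second had 2 higher and 1 lower, and 1 higher and none lower. Gfi1b, a repressor that acts in erythroid cells, megakaryocytes and the step from endothelium to blood, read 7.53, 7.74 and 7.90 in induced 24 h cells, against 6.43, 6.38 and 6.67 in induced 12 h cells. All arrays at 24 h were above all others, with a rise of 1.23 ± 0.159 (limma, adjusted p = 0.000951). Runx1, which is required for blood to emerge from endothelium, read 7.76, 7.31 and 6.91 in induced 24 h cells, against 6.50, 6.23 and 6.33 in induced 12 h cells. The times did not overlap, and the rise was 0.97 ± 0.188 (adjusted p = 0.0157). Nfe2, a platelet and erythroid factor, rose by 1.08 ± 0.216 (adjusted p = 0.0194). The calls of Runx1 and Nfe2 were each lost without 3 single arrays, namely induced 24 h replicate 2 (adjusted p = 0.0506 and 0.0525), induced 12 h replicate 2 (0.0874 and 0.085), and induced 12 h replicate 3 for Runx1 (0.0727) or replicate 1 for Nfe2 (0.105). None of the 3 was shown to differ from its control change (difference, adjusted p = 0.0587 for Gfi1b, 0.872 for Runx1 and 0.167 for Nfe2).

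Pf4, a chemokine of platelets and their precursors, stayed dim, at 3.87, 3.99 and 3.94 in induced 24 h cells, against 3.01, 3.13 and 2.98 in induced 12 h cells. Its values were tight, and it rose by 0.89 ± 0.13 (limma, adjusted p = 0.00256). Arhgdib, which is expressed in blood and endothelial cells, rose by 1.08 ± 0.239 (adjusted p = 0.0332), a call lost without 5 of the 12 single arrays. Bcl11a, a repressor of fetal globin genes that is also expressed in neural cells, fell by 1.21 ± 0.149 (adjusted p = 0.000696), and Coro1a, an actin regulator of white blood cells, fell by 0.77 ± 0.133 (adjusted p = 0.00784). Lmo2 and Hhex, partners in the blood programme, were not called, with changes of 0.70 ± 0.264 and 0.38 ± 0.213 (adjusted p = 0.266 and 0.515). None of 14 erythroid genes was called in either direction, with a median of 0.20. The embryonic globin gene Hbb-bh1 read 2.65, 3.06 and 2.88 in induced 24 h cells, against 2.85, 2.88 and 3.14 in induced 12 h cells. These signals were as low as in control cells (2.73 to 3.07), and the members with the highest mean signal, Tfrc and Fech, changed by -0.13 ± 0.162 and 0.43 ± 0.187 (adjusted p = 0.811 and 0.375).

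The primitive streak list held the most called differences between induced and control cells of any list. Of 20 measured genes, none rose and 3 fell in induced cells, with a median of -0.23, beside 1.25% of all genes called lower. In control cells 8 rose and none fell, with a median of 0.66, beside 0.562% of all genes called higher. For 9 of the 20 the difference between the changes was called, always with the lower change in induced cells, beside 0.326% of all genes. The count of 3 fallers was the same without induced 24 h replicate 3 and with the 6 induced arrays alone. Cer1, a secreted inhibitor of Nodal, BMP and Wnt signals, read 4.72, 4.19 and 4.32 in induced 24 h cells, against 6.95, 5.95 and 6.38 in induced 12 h cells. In control cells the order was reversed, with 9.99, 9.55 and 9.52 on control day 3, against 7.87, 6.50 and 7.63 on control day 2.5. The groups did not overlap in either comparison, and the changes had opposite signs. Cer1 fell by 2.02 ± 0.319 or 4.04-fold in induced cells (limma, adjusted p = 0.00442) and rose by 2.35 in control cells (adjusted p = 0.00211), a difference of -4.37 ± 0.451 (adjusted p = 0.000862), the largest of any gene. Its promoter window (RefSeq, GRCm38.p6, chr4:82885102-82885401, minus strand) is shown because Cer1 leads this group, and holds 3 CAGNTG matches on the strand opposite to the motif as written and no GGAAGT or AGATAA.
Cer1: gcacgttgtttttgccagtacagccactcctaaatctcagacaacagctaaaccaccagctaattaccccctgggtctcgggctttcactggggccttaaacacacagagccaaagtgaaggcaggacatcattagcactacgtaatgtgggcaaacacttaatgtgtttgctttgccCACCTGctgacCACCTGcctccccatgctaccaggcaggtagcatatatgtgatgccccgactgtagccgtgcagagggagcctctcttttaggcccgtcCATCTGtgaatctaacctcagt

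Eomes, a T-box factor needed for the first mesoderm and for definitive endoderm, read 6.99, 7.32 and 7.11 in induced 24 h cells, against 9.03, 8.36 and 8.91 in induced 12 h cells. The arrays at 24 h were the lowest of all groups, since control cells read 10.32, 10.29 and 10.06 on control day 3, against 9.91, 9.27 and 9.80 on control day 2.5. The fall was 1.62 ± 0.202 (limma, adjusted p = 0.000696), against a change of 0.56 in control cells (difference, adjusted p = 0.00358). Fst, an inhibitor of activin, fell by 1.35 ± 0.192 (adjusted p = 0.00214) and changed by 0.61 in control cells (difference, adjusted p = 0.00504).

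Other genes of the streak and of early mesoderm were not called in induced cells but rose in control cells. Mesp1, a factor of the earliest cardiac and vascular mesoderm, read 4.49, 5.14 and 4.61 in induced 24 h cells, against 4.52, 4.72 and 5.03 in induced 12 h cells. It read 9.15, 9.32 and 8.84 on control day 3, against 6.65, 6.08 and 6.94 on control day 2.5. The induced arrays of both times overlapped at a level below all control arrays, and the changes were -0.01 in induced and 2.55 in control cells (control, limma adjusted p = 0.000119; difference, adjusted p = 0.00358). Lhx1, a homeobox factor of the anterior streak, read 5.74, 6.28 and 5.32 in induced 24 h cells, against 6.95, 6.60 and 6.47 in induced 12 h cells. It read 10.02, 9.62 and 9.58 on control day 3, against 7.72, 6.38 and 7.28 on control day 2.5. The change in induced cells did not pass the test (-0.89 ± 0.3, adjusted p = 0.199), while control cells rose by 2.62 (adjusted p = 0.00055), a difference of -3.51 ± 0.424 (adjusted p = 0.00252). Mixl1, a homeobox factor of mesendoderm, changed by -0.92 ± 0.254 in induced cells (adjusted p = 0.103) and 1.19 in control cells (adjusted p = 0.046, lost without 7 of the 12 single arrays). Its difference (adjusted p = 0.0163) was lost without induced 24 h replicate 2 (0.0514), induced 12 h replicate 3 (0.0536) or control day 3 replicate 1 (0.0545). Frzb, a Wnt inhibitor, and Cfc1, the Nodal co-receptor known as Cryptic, changed by -0.59 and -0.37 in induced cells and by 2.31 and 2.46 in control cells (difference, adjusted p = 0.0106 and 0.000113). Cfc1 was the tighter, at 5.86, 6.25 and 6.04 in induced 24 h cells, against 6.23, 6.43 and 6.61 in induced 12 h cells. Control arrays read 8.80, 8.18 and 8.54 on control day 3, against 6.05, 6.03 and 6.06 on control day 2.5. The induced arrays stayed near the day 2.5 control level. Dgkk, a diacylglycerol kinase, had -0.79 in induced and 2.09 in control cells (difference, adjusted p = 0.0117).

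**Figure D3:**
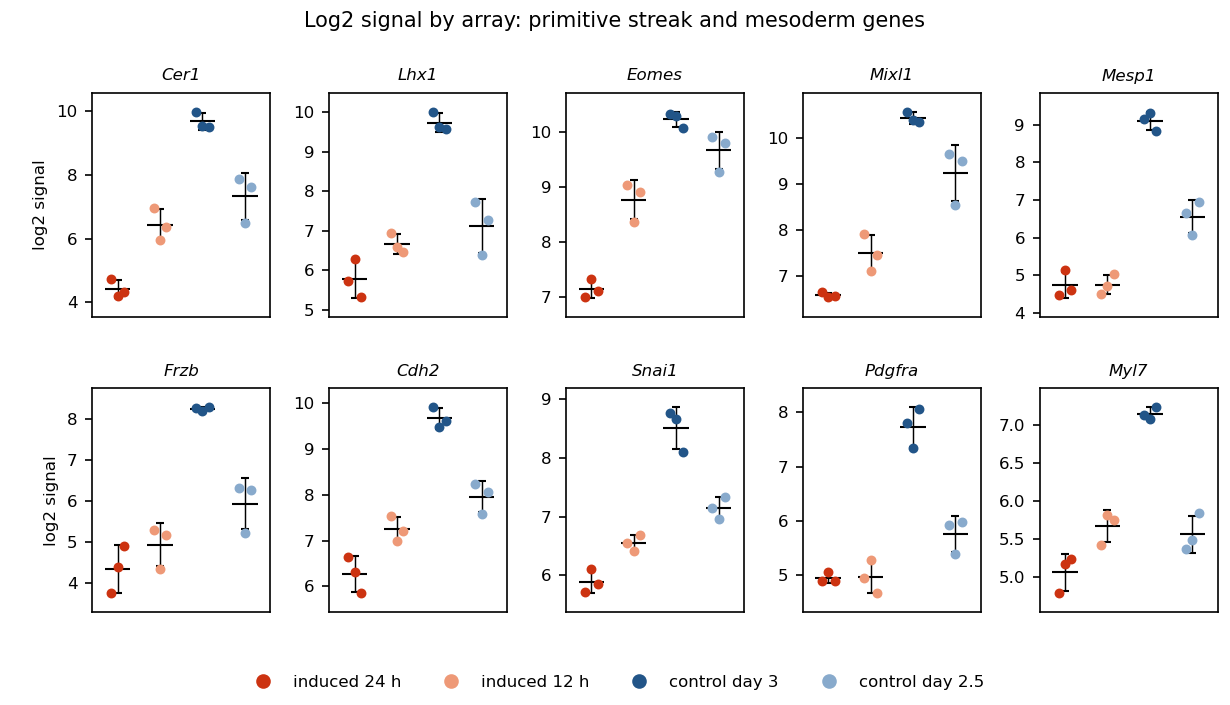
Log2 signal on each array for 10 genes of the streak and of mesoderm, with induced 24 h, induced 12 h, control day 3 and control day 2.5 from left to right; points are arrays, lines means and bars SD over 3 arrays, and each panel has its own vertical scale. Control day 3 is the highest group in every panel. All induced 24 h points lie below the induced 12 h points for Cer1, Lhx1, Eomes, Mixl1, Cdh2, Snai1 and Myl7. Of these, only Cer1, Eomes and Cdh2 were called between the induction times. Mesp1 and Pdgfra have about the same level at both induction times.

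Of 18 cardiac mesoderm genes none was called in induced cells (median 0.03), while 6 rose in control cells (median 0.41), beside 0.562% of all genes. The difference was called for Gata4, Myl7 and Pdgfra. Pdgfra, a receptor of paraxial and cardiac mesoderm, read 4.90, 5.06 and 4.90 in induced 24 h cells, against 4.95, 5.27 and 4.67 in induced 12 h cells. It read 7.80, 7.34 and 8.06 on control day 3, against 5.93, 5.38 and 5.98 on control day 2.5. The induced arrays of the 2 times overlapped and the control arrays did not, with changes of -0.01 in induced and 1.97 in control cells (difference, limma adjusted p = 0.00654). Myl7, an atrial myosin light chain, changed by -0.60 ± 0.169 in induced cells and 1.58 in control cells (difference, adjusted p = 0.00107). Gata4, a cardiac and endoderm factor, changed by 0.22 in induced and 1.61 in control cells (difference, adjusted p = 0.0163, and 0.0524, 0.0582 and 0.0541 without induced 12 h replicate 1, induced 12 h replicate 2 or control day 3 replicate 1). The members with the highest mean signal were Gata6, at 0.43 ± 0.215 (adjusted p = 0.454), and Actc1, at -0.65 ± 0.214 (adjusted p = 0.193).

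Of 19 paraxial mesoderm genes, 3 rose in induced cells and 5 in control cells, beside 0.557% and 0.562% of all genes. None fell in either, and the medians were 0.02 and 0.25. Rspo3, an enhancer of Wnt signals, read 8.89, 8.64 and 8.97 in induced 24 h cells, against 7.59, 6.98 and 7.69 in induced 12 h cells. Control cells read 8.95, 8.52 and 8.85 on control day 3, against 7.09, 6.45 and 7.01 on control day 2.5. Both comparisons were free of overlap, with changes of 1.41 ± 0.214 in induced (limma, adjusted p = 0.0031) and 1.92 in control cells (adjusted p = 0.000456). Foxc2, a forkhead factor of paraxial mesoderm and of vessels, read 6.68, 6.06 and 4.90 in induced 24 h cells, against 4.34, 4.41 and 4.33 in induced 12 h cells. The arrays at 24 h were widely spread, and the rise of 1.52 ± 0.326 (adjusted p = 0.0285) was lost without 4 of the 12 single arrays and after a further quantile normalization. Cited1, a transcriptional co-activator, rose by 1.10 ± 0.228 (adjusted p = 0.0233), a call lost without 5 of the 12. The list had 2 risers without induced 24 h replicate 3 and 1 with the 6 induced arrays alone. Mesp2, Msgn1 and Tbx6, factors of the presomitic mesoderm, rose in control cells by 1.22, 1.41 and 1.13 and changed by -0.18, 0.11 and -0.01 in induced cells, with a called difference for Mesp2 (adjusted p = 0.0178, lost without 6 of the 12).

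Epiblast genes fell in the largest share of any list. Of 12 measured, 7 were called lower and none higher, and all 12 changes were negative, with a median of -0.99, beside 1.25% of all genes called lower. In control cells 2 were lower and the median was -0.11. The count was 6 without induced 24 h replicate 3 and 4 with the 6 induced arrays alone. Fgf5, the growth factor that marks the epiblast after implantation, read 5.49, 5.92 and 5.56 in induced 24 h cells, against 7.38, 7.14 and 7.08 in induced 12 h cells. It read 9.37, 9.41 and 9.08 on control day 3, against 9.15, 8.65 and 9.14 on control day 2.5. The induced groups were far apart and both below the control arrays, which overlapped between the days. The fall was 1.55 ± 0.176 or 2.92-fold (limma, adjusted p = 0.000546), against a change of 0.30 in control cells (difference, adjusted p = 0.00455). Otx2, a homeobox factor of the epiblast and anterior neural tissue, read 7.25, 7.81 and 7.66 in induced 24 h cells, against 8.74, 9.08 and 8.94 in induced 12 h cells. Its fall of 1.35 ± 0.158 (adjusted p = 0.000594) also differed from the control change of 0.28 (adjusted p = 0.00504). Utf1, a chromatin protein of pluripotent cells, read 8.88, 9.48 and 8.99 in induced 24 h cells, against 10.89, 10.47 and 10.45 in induced 12 h cells. Control cells fell too, at 9.67, 9.11 and 8.87 on control day 3, against 10.55, 10.34 and 10.23 on control day 2.5. The changes were -1.49 ± 0.217 in induced cells (adjusted p = 0.00256) and -1.16 in control cells (adjusted p = 0.0195, lost without 5 of the 12 single arrays), with no called difference. Zic2 and Zic5, zinc finger factors of the epiblast and neural plate, fell by 1.23 ± 0.212 and 1.07 ± 0.151 (adjusted p = 0.00752 and 0.00206), and Zic2 gave 0.0514 without induced 12 h replicate 3. Dnmt3b, a DNA methyltransferase, changed by -0.91 (adjusted p = 0.0192, lost without 4 of the 12 arrays).

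Pluripotency genes fell for 6 of 22 measured and rose for 1, beside 1.25% of all genes called lower and 0.557% called higher. The median was -0.67 against -0.32 in control cells, where 1 was higher and 1 lower. Omitting induced 24 h replicate 3 left 4 lower and 1 higher, and the 6 induced arrays alone gave 3 lower and 1 higher. Pou5f1, which encodes OCT4, read 10.01, 10.28 and 10.08 in induced 24 h cells, against 11.18, 10.92 and 11.02 in induced 12 h cells. The times did not overlap, and the fall was 0.92 ± 0.154 (limma, adjusted p = 0.00652). Its change in control cells was -0.33 (adjusted p = 0.772), and the difference was not called (adjusted p = 0.619). Eras, a Ras protein of embryonic stem cells, read 6.35, 6.00 and 5.85 in induced 24 h cells, against 7.26, 7.65 and 7.57 in induced 12 h cells. It fell by 1.43 ± 0.177 (adjusted p = 0.000696). Nanog, a core pluripotency factor, read 8.16, 8.34 and 7.68 in induced 24 h cells, against 8.79, 8.77 and 8.74 in induced 12 h cells. Both times were below all control arrays (9.97 to 10.59), and the change of -0.70 ± 0.168 passed the threshold narrowly (adjusted p = 0.0499) and was lost without 10 of the 12 single arrays. Sox2 was not called (-1.07 ± 0.301, adjusted p = 0.109). L1td1, an RNA-binding protein, fell by 1.14 ± 0.224 (adjusted p = 0.0178, and 0.0926 and 0.0706 without induced 12 h replicate 1 or 2). Tbx3, a T-box factor that also acts in mesoderm, was the riser, at 0.88 ± 0.16 (adjusted p = 0.0105, and 0.0524 and 0.0511 without induced 12 h replicate 2 or 3), and rose by 1.32 in control cells (adjusted p = 0.000769).

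Genes of the Nodal and activin pathway fell for 7 of 16 measured and rose for none, beside 1.25% of all genes called lower. The median was -0.51, while in control cells 1 rose and 2 fell, with a median of 0.16. The count was 4 without induced 24 h replicate 3 and also with the 6 induced arrays alone. The 7 span the ligand Nodal, its co-receptor Tdgf1 and its inhibitors Lefty1, Lefty2 and Cer1, together with the activin inhibitor Fst and the related ligand Gdf3. Nodal read 6.01, 6.27 and 5.74 in induced 24 h cells, against 7.14, 7.06 and 6.77 in induced 12 h cells. Its fall was 0.98 ± 0.187 (limma, adjusted p = 0.0141), which became 0.0508, 0.0764 and 0.0732 without induced 24 h replicate 3, induced 12 h replicate 1 or induced 12 h replicate 2. Tdgf1, also known as Cripto, read 10.19, 10.37 and 9.97 in induced 24 h cells, against 11.58, 11.60 and 11.73 in induced 12 h cells. The gap between the times was several times the spread within them, while control cells stayed between 12.20 and 12.40. Tdgf1 fell by 1.46 ± 0.133 (adjusted p = 0.000157), against a change of 0.07 in control cells (difference, adjusted p = 0.0028). Lefty1 read 5.06, 5.40 and 4.86 in induced 24 h cells, against 7.02, 6.70 and 6.26 in induced 12 h cells. It fell by 1.55 ± 0.231 (adjusted p = 0.00278), and by 1.15 in control cells (adjusted p = 0.033, lost without 6 of the 12 single arrays). The calls of Lefty2 (adjusted p = 0.0376) and Gdf3 (adjusted p = 0.0401) were lost without 9 and 8 of the 12 single arrays, and that of Gdf3 also when each array was centred on its median.

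Feedback genes of FGF and ERK signalling fell for 5 of 19 measured and rose for none, beside 1.25% of all genes called lower. The median was -0.43, against 0.08 in control cells, where 1 rose. The count was 4 without induced 24 h replicate 3 and 3 with the 6 induced arrays alone. Dusp6, the phosphatase that switches off ERK, read 7.33, 7.66 and 7.08 in induced 24 h cells, against 9.17, 8.66 and 8.96 in induced 12 h cells. It read 9.77, 9.94 and 9.65 on control day 3, against 9.75, 9.28 and 9.72 on control day 2.5. The induced arrays at 24 h lay below those at 12 h by more than the whole range of either, and the control arrays overlapped. The fall was 1.57 ± 0.189 (limma, adjusted p = 0.000626), against a change of 0.21 in control cells (difference, adjusted p = 0.00647). Etv5, an ETS factor induced by FGF signals, read 7.42, 7.68 and 6.54 in induced 24 h cells, against 9.10, 8.65 and 8.63 in induced 12 h cells. Replicate 3 was the lowest at 24 h, and the fall was 1.58 ± 0.235 (adjusted p = 0.00278), with no called difference from control cells (adjusted p = 0.209). Its relative Etv1 fell by 1.21 ± 0.18 (adjusted p = 0.00278), so that within the ETS family these members fell while Ets1, Ets2, Fli1 and Erg rose. Il17rd, an inhibitor of FGF receptors, and Spry2, a feedback inhibitor, had adjusted p-values of 0.0378 and 0.0453, and their calls were lost without 9 and 10 of the 12 single arrays.

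**Figure D4:**
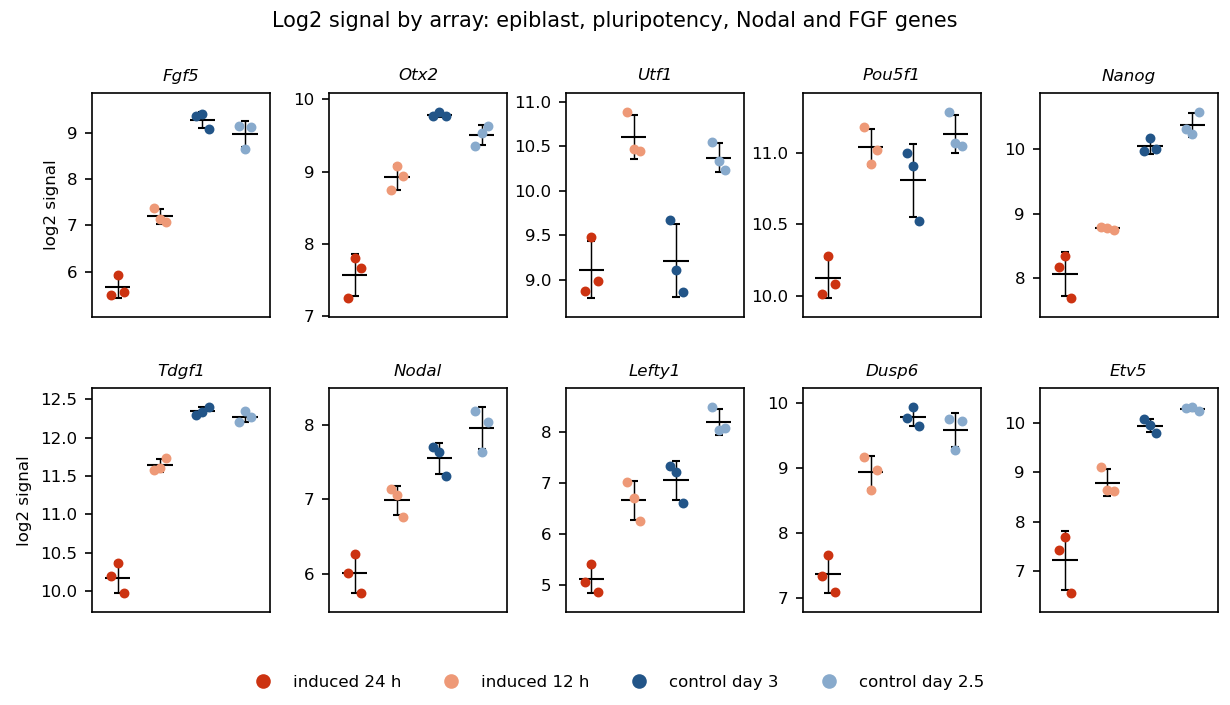
Log2 signal on each array for 10 genes of the epiblast, pluripotency, Nodal and FGF lists, with induced 24 h, induced 12 h, control day 3 and control day 2.5 from left to right; points are arrays, lines means and bars SD over 3 arrays, and each panel has its own vertical scale. In all 10 panels the induced 24 h points lie below the induced 12 h points. Fgf5, Otx2, Tdgf1 and Dusp6 are about as high on control day 3 as on day 2.5, while Utf1 and Lefty1 are lower there on day 3.

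Genes of epithelial cells were among the fallers. On the list for the epithelial to mesenchymal transition, 6 of 18 were called lower and 1 higher, beside 1.25% and 0.557% of all genes. The median was -0.24 against 0.47 in control cells, where 3 rose and none fell. There were 4 lower and 2 higher without induced 24 h replicate 3, and none of either with the 6 induced arrays alone. Cdh1, the E-cadherin of epithelia and stem cells, read 9.39, 9.89 and 9.45 in induced 24 h cells, against 10.58, 10.45 and 10.39 in induced 12 h cells. The times did not overlap, and the fall was 0.89 ± 0.145 (limma, adjusted p = 0.00532; control -0.33; difference, adjusted p = 0.596). Esrp1, a splicing factor of epithelial cells, fell by 0.89 ± 0.164 (adjusted p = 0.0118, and 0.0513 and 0.0611 without induced 12 h replicate 1 or 2). Epcam, an epithelial surface protein, fell by 0.73 (adjusted p = 0.0131, and 0.0649 and 0.0742 without induced 12 h replicate 2 or 3). The tight junction gene Cldn6 (adjusted p = 0.0342) and the polarity gene Crb3 (adjusted p = 0.031) lost their calls without 7 and 5 of the 12 single arrays.

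The list does not hold only epithelial genes among its fallers. Cdh2, the N-cadherin of mesoderm and neural cells, read 6.64, 6.31 and 5.85 in induced 24 h cells, against 7.54, 6.99 and 7.22 in induced 12 h cells. It read 9.92, 9.48 and 9.62 on control day 3, against 8.23, 7.58 and 8.06 on control day 2.5. It fell in induced cells (-0.98 ± 0.224, limma, adjusted p = 0.0401, lost without 8 of the 12 single arrays and after median centring) and rose in control cells (1.72, adjusted p = 0.0016). The difference of -2.70 ± 0.317 passed the test (adjusted p = 0.00211). Snai1, the repressor of Cdh1 in gastrulation, changed by -0.66 ± 0.184 (adjusted p = 0.104) in induced cells and rose by 1.36 in control cells (difference, adjusted p = 0.00358). Zeb2, a related repressor that is also a blood factor, read 8.05, 7.41 and 7.21 in induced 24 h cells, against 6.69, 6.45 and 6.36 in induced 12 h cells. Zeb2 was the called riser of the list, at 1.06 ± 0.197 (adjusted p = 0.0122, and 0.0636 and 0.0727 without induced 12 h replicate 2 or 3). The largest positive change on the list, 1.38, belonged to another member and was not called.

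Among the 15 largest falls, 5 genes not yet described also fell in control cells. Uchl1, a deubiquitinase of neurons and stem cells, read 6.49, 7.04 and 5.95 in induced 24 h cells, against 8.33, 8.15 and 8.15 in induced 12 h cells. Control arrays read 7.19, 6.90 and 6.53 on control day 3, against 8.29, 8.30 and 8.24 on control day 2.5. The falls of 1.72 ± 0.229 (limma, adjusted p = 0.00133) and 1.40 (adjusted p = 0.00774) had no called difference. The same held for Tmem54, Jakmip2, Mal2 (a protein of apical transport in epithelia) and the histone gene H2ac1, with falls of 1.64, 1.63, 1.62 and 1.48 in induced and 1.40, 0.89, 1.06 and 1.36 in control cells. The control calls of Uchl1, Tmem54 and Jakmip2 were lost without 1, 2 and 4 of the 12 single arrays. Crabp1, which binds retinoic acid in the cytoplasm, read 6.93, 7.28 and 6.55 in induced 24 h cells, against 8.39, 8.66 and 8.62 in induced 12 h cells. Control cells did not follow (0.23), and the fall of 1.64 ± 0.184 (adjusted p = 0.000529) differed from theirs (adjusted p = 0.00504). Pim2, a kinase that promotes survival, fell by 1.66 ± 0.209 (adjusted p = 0.000797) without a called difference from the control change of -0.80.

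The BMP, Wnt, Notch and Hox lists had at most 2 called members each in induced cells, beside 0.557% of all genes called higher and 1.25% called lower. Of 21 BMP pathway genes, 2 rose, with a median of 0.09, and 1 was called without induced 24 h replicate 3 and with the 6 induced arrays alone. Bmp4, the ligand that specifies mesoderm and blood, read 8.78, 9.04 and 9.14 in induced 24 h cells, against 8.03, 7.98 and 8.09 in induced 12 h cells. It rose by 0.95 ± 0.154 (limma, adjusted p = 0.00523) and by 1.10 in control cells (adjusted p = 0.00264). Its target Id1 rose by 0.81 ± 0.174 (adjusted p = 0.029), a call lost without 6 of the 12 single arrays. Of 19 Wnt target and antagonist genes (median -0.14), 2 fell, namely the inhibitors Sfrp1 (-1.11 ± 0.238, adjusted p = 0.0285, lost without 4 of the 12) and Sfrp2 (-0.94 ± 0.159, adjusted p = 0.00672). That count was 1 without induced 24 h replicate 3 and 0 with the 6 induced arrays alone. None of 16 Notch genes (median -0.02) was called, against 3 risers in control cells, and the 2 with the highest mean signal, Rbpj and Hes1, changed by -0.24 ± 0.128 and -0.19 ± 0.189. None of 21 Hox genes (median 0.05) was called, with Hoxb3 at 0.24 ± 0.163 and Hoxb1 at -0.14 ± 0.138.

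The lists of growth and stress had at most 1 riser and 2 fallers each, beside 0.557% of all genes called higher and 1.25% called lower. Of 27 cell cycle genes (median -0.12), 1 was called. This was Ccnd2, a D-type cyclin, which read 7.75, 7.52 and 7.51 in induced 24 h cells, against 6.37, 6.28 and 6.68 in induced 12 h cells. It rose by 1.15 ± 0.163 (limma, adjusted p = 0.00207). The arrays at 12 h lay below all control arrays (7.49 to 8.36). Those at 24 h lay within the range of control day 2.5 (7.49 to 8.05) and below all control day 3 arrays (8.36, 8.29 and 8.35). None of 22 hypoxia and glycolysis genes (median -0.01) was called, with Aldoa at -0.01 ± 0.125 and Pgk1 at 0.21 ± 0.151. Of 18 genes of amino acid transport and the stress factor ATF4 (median -0.24), the arginine transporter Slc7a3 fell by 1.37 ± 0.167 (adjusted p = 0.000626) and by 1.37 in control cells. Of 14 p53 targets (median -0.07), Gadd45a and Pmaip1 were called lower (adjusted p = 0.0453 and 0.0399), calls lost without 10 and 9 of the 12 single arrays, and neither was called after median centring, without induced 24 h replicate 3 or with the 6 induced arrays alone. Among 16 immediate early genes (median -0.27), Myc rose by 0.94 ± 0.203 (adjusted p = 0.0298, lost without 4 of the 12), while Dusp1 fell by 0.88 (adjusted p = 0.0131, and 0.0775 and 0.0567 without induced 12 h replicate 1 or 2) and Egr1 by 0.84 (adjusted p = 0.0333, lost without 6 of the 12). On that list no riser and 1 faller were called without induced 24 h replicate 3, and none with the 6 induced arrays alone. None of 16 interferon and antigen presentation genes (median 0.05) was called, with Ifitm3 at 0.49 ± 0.148 and Ifitm2 at 0.11 ± 0.136. Of 15 basement membrane and integrin genes (median 0.04), Col4a2, a chain of collagen IV, rose by 0.66 ± 0.137 (adjusted p = 0.0246, lost without 4 of the 12 single arrays, induced 24 h replicate 3 among them, and with the 6 induced arrays alone).

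Among markers of other cells that the cultures could hold, the feeder, neuroectoderm, endoderm and smooth muscle lists had at most 1 called member each. The shares over all genes were 0.557% called higher and 1.25% called lower in induced cells. None of 20 fibroblast feeder genes (median -0.05) was called, and their mean signal per array ran from 4.97 to 5.25 at induced 24 h, against 5.01 to 5.22 at 12 h. The members with the highest mean signal were Thy1, with a change of -0.75 ± 0.251 (limma, adjusted p = 0.2), and Fbln1, with -0.31 ± 0.145 (adjusted p = 0.419). None of 13 neuroectoderm genes (median 0.14) was called, with mean signals of 5.21 to 5.46 against 5.20 to 5.31, and Msi1 and Nes changed by -0.46 ± 0.141 and -0.34 ± 0.286. Of 14 visceral and definitive endoderm genes (median 0.16) only Sox17 was called, with mean signals of 5.47 to 5.94 against 5.38 to 5.63. Of 12 smooth muscle and pericyte genes (median 0.07), Cnn1, the smooth muscle calponin, fell by 1.44 ± 0.174 (adjusted p = 0.000626), and its difference from control cells (adjusted p = 0.0377) was lost without 8 of the 12 single arrays. Mean signals of that list were 5.68 to 5.85 against 5.77 to 5.92. The pluripotency list had mean signals of 7.00 to 7.58 at induced 24 h, against 7.68 to 8.16 at 12 h, and the endothelial junction list 5.89 to 5.99 against 5.34 to 5.46, so these lists did not overlap between the times. Array signals have no true zero, and the part of such cells in the changes above was not tested.

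**Figure D5:**
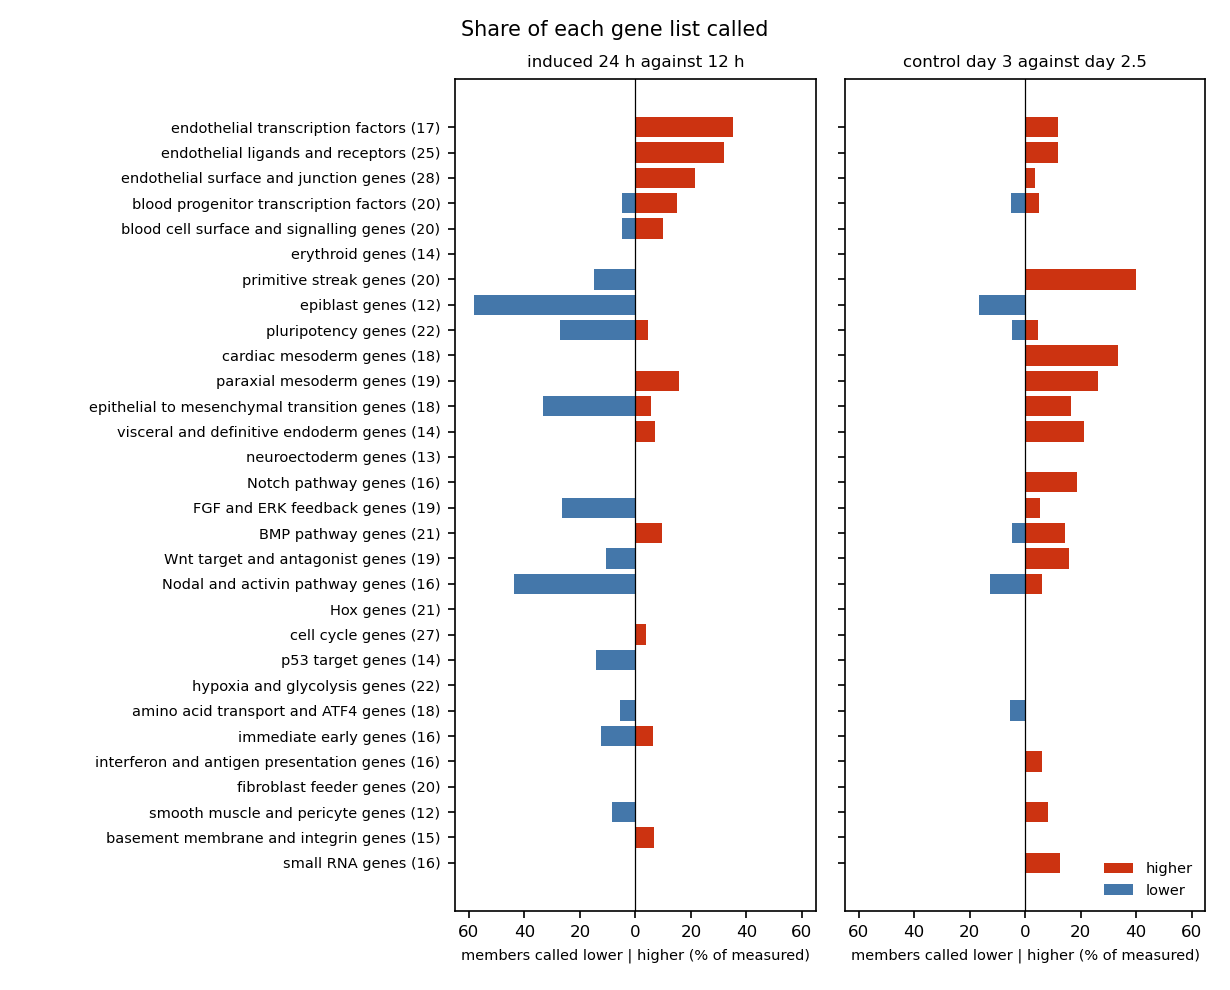
Share of the measured members of each gene list that was called higher (red, to the right) or lower (blue, to the left), in per cent, for induced 24 h against 12 h (left panel) and control day 3 against day 2.5 (right panel); the number of measured members is in brackets. The 3 endothelial lists have the longest red bars on the left, and the epiblast, Nodal and epithelial to mesenchymal transition lists the longest blue bars. On the right the longest bars are those of the primitive streak and cardiac mesoderm lists, both red.

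Of the microRNA genes of the miR-302 cluster, which is active in pluripotent cells, 2 differed in their change between induced and control cells. None of 16 small RNA genes on the arrays (median -0.13) was called in induced cells, while Mir302b and Mir302c rose in control cells. Mir302c read 4.89, 4.51 and 4.75 in induced 24 h cells, against 5.00, 5.65 and 6.09 in induced 12 h cells. It read 6.45, 7.59 and 6.91 on control day 3, against 5.55, 4.94 and 5.64 on control day 2.5. The induced arrays at 24 h were below those at 12 h without passing the test (-0.87 ± 0.299, limma, adjusted p = 0.212), and control cells rose by 1.61 (adjusted p = 0.0186, lost without 3 of the 12 single arrays). The difference of -2.48 ± 0.423 (adjusted p = 0.0163) was lost without induced 24 h replicate 2 (0.0568), induced 12 h replicate 2 (0.0549) or induced 12 h replicate 3 (0.0541). Mir302b, at -0.28 ± 0.229 in induced and 1.37 in control cells, had a difference of -1.65 (adjusted p = 0.0398) that was lost without 10 of the 12. The members with the highest mean signal, Mir302a and Mir363, were not called in induced cells, the second with a change of -0.72 ± 0.298 (adjusted p = 0.333). The probe sets are named for the hairpin genes. Those of Mir302b and Mir302c lie on the plus strand of chromosome 3 (RefSeq, GRCm38.p6), and whether the probe sets read the mature RNA was not tested. The mature sequences of Mir302b and Mir302c are shown because both genes rose in control cells, with the seed, bases 2 to 8, in capitals. Both 5p arms carry the same seed, while the 3p seeds are shifted by 1 base against each other.
miR-302b-3p (chr3:127545275-127545297): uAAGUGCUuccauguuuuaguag
miR-302c-3p (chr3:127545406-127545427): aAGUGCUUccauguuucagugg
miR-302b-5p (chr3:127545238-127545260): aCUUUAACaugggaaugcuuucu
miR-302c-5p (chr3:127545368-127545389): gCUUUAACaugggguuaccugc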

How the data were processed

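The log2 signals are those of the authors, made by RMA (Affymetrix Expression Console, according to the submitters' processing notes) from cDNA amplified with WT-Ovation Pico and WT reagents per the labels' protocols. No source used here gives a genome build or software version. Single symbols were available for 21789 of 35556 probe sets (21698 matched by gene identifier), while 1621 carried several and the platform annotation did not list 12146. For 999 genes with several probe sets, the one with the highest mean was used, which left 19938 genes. From these values, limma 3.58.1 in R 4.3.3 fitted the 4 replicated groups (12 arrays) together, with the induced change, the control change and their difference as contrasts. P-values were adjusted by Benjamini-Hochberg over all genes and called under 0.05. The script was tested on simulated data. The p-values measure only the spread between these samples.

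Genes named in the text are the induced factors, the 15 largest changes each way, up to 4 called members of each list each way, 2 members with the highest mean signal of lists without a call, and the 6 largest called differences each way. Other genes named were chosen after their values were seen, among them Erg, Sox18, Calcrl, Ramp2, Tie1, S1pr1, Kdr, Flt1, Rasip1, Esam, Pecam1, Cd34, Lmo2, Hhex, Hbb-bh1, Mesp1, Mixl1, Pdgfra, Myl7, Gata4, Mesp2, Msgn1, Tbx6, Zic5, Dnmt3b, Pou5f1, Nanog, Sox2, Nodal, Lefty2, Spry2, Epcam, Crb3, Snai1, Upp1, Mir302b and Mir302c. Members and lists were chosen with earlier results of these data known. The 31 lists overlap in part and hold 570 symbols, of which 532 were measured. Alternatives changed the normalization, filter, probe set rule, variance model, block and samples.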

Additional observations from a re-analysis of the deposited data

Results flagged for a closer look

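With 3 arrays in each group, no test for an outlying array was run. The change over time differed between induced and control cells for 85 genes by the test of the difference itself (limma, adjusted p under 0.05). The 6 largest of these called differences in each direction are given here as induced change minus control change on the log2 scale. They were positive for Ctla2a (2.86), Tek (2.58), Cdh5 (2.26), Ctla2b (2.14), Ptprb (2.08) and Sox7 (2.05). They were negative for Cer1 (-4.37), Lhx1 (-3.51), Frzb (-2.90), Dgkk (-2.88), Cfc1 (-2.83) and Cdh2 (-2.70). Ctla2b and Ptprb lost this call without 4 and 10 of the 12 single arrays, and the other 10 genes kept it without any 1 array. The probes of Ctla2a and Ctla2b can bind both transcripts, so these 2 differences may not be independent.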

How the results depend on the processing

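Against 360 calls between induced 24 h and 12 h, the count was 742 with a replicate block, 100 with only the compared groups, 1495 with array weights and 174 over all probe sets, and 21 to 727 with replicates or single arrays left out. It lay within 1.5 times of 360 with the line as a covariate, a further quantile normalization, median centring, no dim genes, the mean of probe sets and a variance trend. Against 151 control calls, the count was 344 with the replicate block, 471 with array weights, 71 over all probe sets and 17 to 238 in the leave-outs. Against 85 differences between the changes, it was 163 with the block, 130 after quantile normalization, 318 with array weights, 39 over all probe sets and 2 to 109 in the leave-outs. The low ends came from leaving out all arrays of replicate 2 or 3, which leaves 8 arrays. Leaving out all arrays of replicate 1 also leaves 8 and gave 459 induced calls, 189 control calls and 73 differences. The counts therefore depended on which replicate was left out. Array weights gave 0.27 and 0.318 to induced 24 h replicates 1 and 3 and 3.32 to replicate 2. The single control arrays were left out as an alternative chosen after seeing the data. Replicate numbers were not taken to pair the times, since the deviations of same-numbered induced arrays correlated at 0.511, -0.00474 and 0.316 and those of control arrays at 0.556, 0.221 and 0.0411, and not every array correlated best with its own number. All 360 genes were among the 742 called with the block. Genes described above as not called can therefore be called with the block. Mixl1 and Myl7, for example, had adjusted p = 0.0124 and 0.0217 for the induced change in that limma fit. Of the 74 named genes called, 28 were not called with only the compared groups. Without replicate 1, 2 or 3, 5, 59 and 43 of the 74 were not called. Without dim genes 69 were called and the others were not tested there. No direction turned in any alternative run. Foxc2, Cldn6 and Egr1 were not called after quantile normalization, Gdf3, Cdh2, Gadd45a and Pmaip1 after median centring, and Pmaip1 with a variance trend. The causes were not tested. Genes near the floor of the array have compressed changes.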

Other observations

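The genes below stood outside the lists and were chosen after their values were seen. Npl, a lyase of sialic acid breakdown, read 10.48, 10.18 and 9.99 in induced 24 h cells, against 8.71, 8.72 and 8.58 in induced 12 h cells. The arrays of the times were far apart, with a rise of 1.55 ± 0.161 (limma, adjusted p = 0.000321), against -0.03 in control cells (difference, adjusted p = 0.00554). Igf1, a growth factor, read 6.11, 5.85 and 5.95 in induced 24 h cells, against 4.82, 4.77 and 4.45 in induced 12 h cells. It rose by 1.29 ± 0.143 (adjusted p = 0.000529), in the same interval as Igf2. Bmp6, a BMP ligand, Arap3, a regulator of small GTPases in endothelium, Rnd2, Tspan18, a tetraspanin, and Skap1, an adaptor of T cells, rose by 0.98, 1.00, 1.55, 1.54 and 1.33. Each of these 7 genes was called in all 6 fits that left out 1 induced array.

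Single fallers outside the lists follow, which stand for no group of genes. Tubb2b, a neuronal beta-tubulin, read 6.85, 6.99 and 7.19 in induced 24 h cells, against 7.96, 7.83 and 7.86 in induced 12 h cells. Syt11, a synaptotagmin, read 5.47, 5.51 and 4.92 in induced 24 h cells, against 6.73, 6.51 and 6.57 in induced 12 h cells. Neither gene overlapped between the times, with falls of 0.87 ± 0.145 and 1.30 ± 0.168 (limma, adjusted p = 0.00616 and 0.000951). Control cells changed by -0.58 and -0.99, with no called difference. Nrcam, a neural adhesion molecule, and Kif5c, a kinesin, fell by 1.26 and 0.83 (adjusted p = 0.000679 and 0.00463).

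Cdh3, the P-cadherin, read 7.11, 6.89 and 6.71 in induced 24 h cells, against 8.45, 8.06 and 8.16 in induced 12 h cells. The arrays did not overlap, and the fall was 1.32 ± 0.16 (limma, adjusted p = 0.000626). Grb7, a signalling adaptor, Ap1m2, a sorting adaptor of epithelia, and Rab25, an epithelial trafficking GTPase, fell by 1.03, 0.89 and 0.80 (adjusted p = 0.00118, 0.00367 and 0.00538). In control cells the changes of Cdh3, Grb7, Ap1m2 and Rab25 were -0.32, -0.36, -0.28 and -0.14. Bcat1, which breaks down branched-chain amino acids, and Slc7a7, an amino acid transporter, fell by 1.35 and 1.30 (adjusted p = 0.00271 and 0.000372). Each faller named here was called in all 6 fits that left out 1 induced array.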
